A study of Mus musculus with 16 samples.

Results

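RNA was sequenced from 10 liver tumors of 4T1, a mouse mammary carcinoma line, and these libraries are described along the amount of hepatocyte RNA they held. Hepatocyte RNA was read from Alb, the gene for serum albumin, and the libraries were ordered by log2(Alb + 1), the genes that rise and fall being chosen by their fit on this value, with Alb in fragments mapped per transcript length and library size (FPKM). The 10 libraries were all liver libraries among 16 libraries of the series, the other 6 being tumors of the mammary fat pad, labelled subcutaneous. Treated mice (post_Liver, n = 5) received paclitaxel, which stabilises microtubules, at 10 mg/kg into the peritoneum 5 times per week for 2 weeks, and untreated liver tumors formed the other group (pre_Liver, n = 5). All mice were female wild-type BALB/c of 6 weeks, each liver tumor began with 200000 cells placed below the capsule of the left lobe, and tissue was taken after 15 days of growth. The labels mention control mice given saline but do not say whether the untreated tumors came from them or were taken before dosing, nor that each library came from a separate mouse, so p-values reflect only how these libraries spread, which may be technical. Tumors were digested to cell suspensions, frozen and then extracted, without a step described that removes host cells. FPKM do not show sequencing depth, so values carry no counting interval.

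Hepatocytes make up most of the mass of the liver and secrete most plasma proteins, among them albumin, apolipoproteins, clotting factors and complement. They also break down amino acids, make urea, glucose, ketone bodies and bile acids, and oxidise drugs, with some of these tasks kept to cells near the portal vein and others to cells near the central vein. A tumor that grows in the liver can hold hepatocytes, Kupffer cells (the resident macrophages), sinusoidal endothelium and stellate cells of the host beside carcinoma cells and recruited immune cells. In bulk RNA, fewer cells of a type and less RNA per cell cannot be told apart, and the values are shares, so that more RNA of 1 kind lowers all others.

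Alb (chromosome 5, 90460897 to 90476602, GRCm38) was lower in treated than in untreated liver tumors on average, with overlapping groups, a difference that was not tested. It stood at 400.2, 475.8, 5505, 5655 and 11519 FPKM in post_Liver replicates 3, 2, 1, 5 and 4, and at 4315, 12625, 15010.4, 28687 and 32308 FPKM in pre_Liver replicates 2, 1, 3, 4 and 5. Libraries are listed in these orders, from low to high Alb within a group, wherever 5 values are given below. Treated tumors averaged 4711 ± 4593 FPKM and untreated tumors 18589 ± 11644 FPKM (SD, n = 5 each), and log2(Alb + 1) averaged 11.19 ± 2.25 in treated and 13.87 ± 1.16 in untreated tumors. The whole range was 80.7-fold. In the 6 fat pad tumors Alb was at most 4.21 TPM, a unit scaled to the same total in each library.

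A pair of treated libraries stood apart at the low end. Between post_Liver replicate 2 and the next library lay 3.18 of the 6.33 log2 units of the axis, and without post_Liver replicates 2 and 3 the axis spanned 2.90 log2 units. These 2 libraries were also the most alike, with 0.438% of 13008 genes more than 2-fold apart, against 1.18% for the next pair, pre_Liver replicates 4 and 5, which hold the 2 highest Alb values. With no counts at hand to set either pair against sampling noise, all were kept as replicates. Lists and the genes the results turn on are given with their slopes in all 10 libraries and in the 8 without post_Liver replicates 2 and 3. In the authors' table of the untreated libraries, pre_Liver replicates 4 and 5 carry a constant per gene of opposite sign to that of replicates 1 to 3, for 3026 of 3026 genes shifted by more than 10 TPM, and a term for these 2 libraries is among the alternatives. Alb and the genes of 11 hepatocyte lists together held 1.35%, 1.62%, 7.86%, 8.09% and 20.8% of the summed FPKM in treated tumors and 7.42%, 13.1%, 21.0%, 26.2% and 27.1% in untreated tumors. Alb alone held between 0.0734% and 6.03%, so the share is in part Alb set against itself. The libraries stood in the same order by this share as by Alb, but for post_Liver replicate 4, which held a larger share than pre_Liver replicate 1 at less Alb. On a log2 scale the share had a slope on Alb of 0.72 in 10 and 0.74 in 8 libraries.

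**Figure D1:**
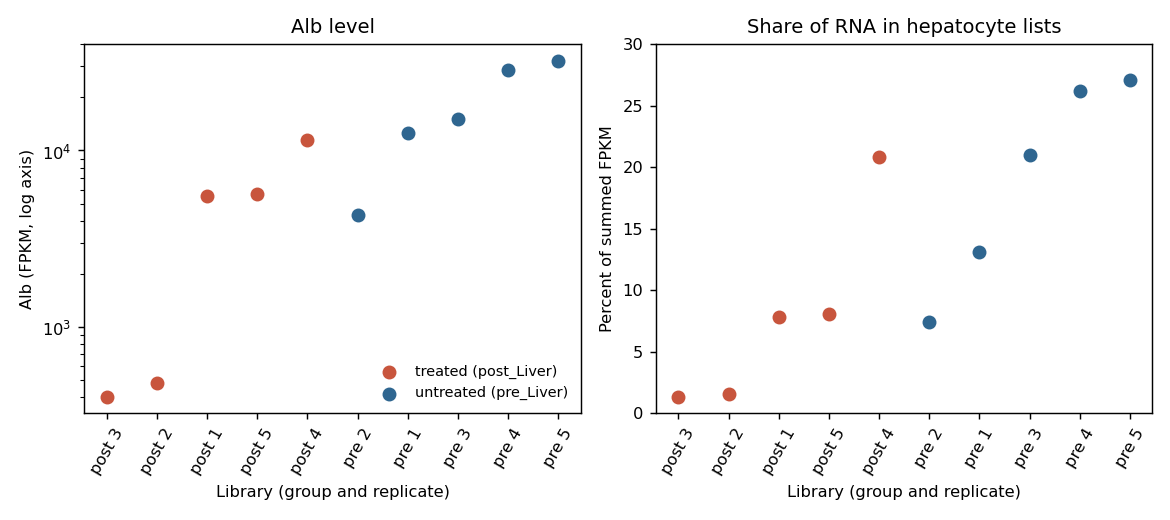
Alb level in FPKM on a log axis (left) and percent of the summed FPKM held by Alb and the 11 hepatocyte gene lists together (right), 1 point per library, treated tumors left of untreated ones and each group sorted by Alb. The 2 treated libraries at 400.2 and 475.8 FPKM stand 3.18 log2 units or more below all others.

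For each gene with a mean of at least 1 FPKM, log2(FPKM + 1) was fitted on log2(Alb + 1) with treatment as a covariate. A slope of 1 is a gene in constant ratio to Alb, and a slope of 0 a gene at the same level in hepatocyte-rich and hepatocyte-poor tumors. A gene is said to rise or fall where limma's Benjamini-Hochberg adjusted p over all 13007 genes was under 0.05. Since Alb itself ordered the libraries, slopes and these calls describe the 10 tumors and are no independent test. Of all genes, 1896 rose (14.6%) and 5500 fell (42.3%), with a median slope of −0.10. In the 8 libraries 1550 rose (11.9%) and 7128 fell (54.8%), with a median of −0.25. Of the genes that rose in 10 libraries 66.0% also rose in 8, which is 80.7% of those that rose in 8, and for genes that fell the shares were 87.9% and 67.8%. The balance of rising and falling genes depends on scaling. With median-of-ratios scaling 3566 rose and 3197 fell, and the median slope moved to 0.01 from −0.10. A slope is thus best read against the median of all genes. All genes but those under 1 TPM in each of the 6 fat pad tumors together held between 88.5% and 99.5% of the summed FPKM, with a slope of the log2 share on Alb of −0.02. Among genes nearest the limit, Mdk had a slope of 0.29 ± 0.11 and Mars of 0.10 ± 0.04 (SE) just inside it, and Pcyt2 of 0.22 ± 0.08 and Eapp of −0.13 ± 0.05 just outside.

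Several liver enzymes and plasma proteins kept a nearly constant ratio to Alb over the whole range. Among the 8 genes of at least 50 FPKM whose log2 ratio to Alb varied least were Serpinc1 (antithrombin), Cyp2c70 and Cyp2c39 (cytochromes P450), Slc38a4 (an amino acid transporter), Ugt1a1 (which conjugates bilirubin), Apob (the core protein of very-low-density lipoprotein) and Serpina1b (an alpha-1-antitrypsin). The SD of this ratio was between 0.23 for Serpinc1 and 0.32 for Serpina1b, against a range of 6.33 for Alb. Serpinc1 (chromosome 1, 160978585 to 161005863) stood at 18.9, 23.8, 180.5, 237 and 603 FPKM in treated tumors and 192, 519, 768, 1234 and 1189 FPKM in untreated tumors. Its slope was 0.95 ± 0.05 (SE) in 10 and 1.00 ± 0.11 in 8 libraries. Serpinc1 was chosen for a steady ratio over all 10 libraries, so the 2 low treated tumors lie near its line by that choice. Apob stood at 5.04, 6.16, 61.2, 59.0 and 156 FPKM in treated tumors and 53.5, 91.9, 192, 399.5 and 364 FPKM in untreated tumors, with slopes of 0.95 ± 0.06 and 1.06 ± 0.12. Serpina1b, Cyp2c39 and Ugt1a1 have near-identical copies or shared exons, so their values are uncertain.

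Promoters of Alb and 3 of these genes are shown because they hold, or in 1 case lack, a sequence that the slopes did not use. Each line holds the 100 bases before the start of transcription in RefSeq (GRCm38.p6), 5′ to 3′ on the strand of the gene, with capitals for the letters GTTAAT or their reverse complement ATTAAC, which is an arm of a palindrome found in liver promoters. Alb at chr5:90460770-90460869 (plus strand), Ugt1a1 at chr1:88211859-88211958 (plus strand) and Serpina1b at chr12:103738190-103738289 (minus strand) hold it in this window, and Serpinc1 at chr1:160978483-160978582 (plus strand) does not.
Alb: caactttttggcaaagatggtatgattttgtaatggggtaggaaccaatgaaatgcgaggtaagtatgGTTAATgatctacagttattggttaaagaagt
Ugt1a1: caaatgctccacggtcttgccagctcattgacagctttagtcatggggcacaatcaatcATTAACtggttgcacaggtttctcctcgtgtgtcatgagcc
Serpina1b: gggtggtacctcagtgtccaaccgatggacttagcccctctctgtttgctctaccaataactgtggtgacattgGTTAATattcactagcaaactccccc
Serpinc1: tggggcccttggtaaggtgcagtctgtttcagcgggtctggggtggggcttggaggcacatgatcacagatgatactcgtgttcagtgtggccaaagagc
In Alb the match begins 32 bases before the RefSeq start, in Ugt1a1 41 and in Serpina1b 26. The annotation used for gene coordinates places other starts, at 90460897 for Alb and at 103830373 for Serpina1b on the minus strand. These distances therefore hold for the RefSeq starts only. Of these 8 genes and Alb, 8 had a promoter in the RefSeq table and 3 held the letters in the 100 bases.

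Over wider sets the same letters were more frequent before genes that rose with Alb. Promoters, of which the 250 bases before the start were searched, were found for 10230 of the 13007 genes (78.6%), and both strands were searched. A gene counted once if any of its promoters held the letters, so a gene with more promoters had more chances to match. GTTAAT was found for 60 of 363 rising genes with a slope of at least 0.5 (16.5%). It was found for 182 of 4405 falling genes of any slope (4.13%) and 537 of all 10230 genes tested with a promoter (5.25%). CAAAGTCCA, a motif of the hepatocyte factor HNF4, was in 2.48%, 0.409% and 0.538% of these sets. TATAAA, the TATA box, was in 20.9%, 7.11% and 8.64%. Motifs were counted apart, so a gene can have more than 1 of them. Among all 27025 genes with a promoter in RefSeq the shares were 7.49%, 0.451% and 14.3%. A match in these letters is not a measured binding site.

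Some genes of amino acid breakdown, urea synthesis and gluconeogenesis rose more steeply than Alb, while most members of their lists did not. Only 9 genes (0.0692%) had a slope above 1 by limma's adjusted p, against 12894 (99.1%) below 1. The 9 were Tat (tyrosine aminotransferase), Sds (serine dehydratase), Gnmt (glycine N-methyltransferase), Cps1 (carbamoyl phosphate synthetase, the entry of the urea cycle), Hpd (which breaks down tyrosine), Mat1a (which makes S-adenosylmethionine), Nnmt (nicotinamide N-methyltransferase), Serpina3k (a plasma serpin) and Pck1 (phosphoenolpyruvate carboxykinase). Tat (chromosome 8, 109990437 to 109999803) stood at 5.5, 5.43, 174, 215 and 847 FPKM in treated tumors and 26.0, 99.7, 273, 1029 and 1258 FPKM in untreated tumors. The 2 lowest treated tumors were the lowest of all, while post_Liver replicate 4 held more Tat than pre_Liver replicates 1 and 3, which had more Alb. The slope of Tat was 1.53 ± 0.10 (SE), the largest of all 13007 genes, and 1.97 ± 0.15 in 8 libraries. Cps1 (chromosome 1, 67123026 to 67231259) stood at 5.65, 4.74, 129, 96.3 and 346 FPKM in treated tumors and 27.6, 127, 196, 713 and 716 FPKM in untreated tumors, with slopes of 1.29 ± 0.08 and 1.65 ± 0.10. Sds stood at 1.17, 1.1, 28.6, 50.9 and 114 FPKM in treated tumors and 4.83, 24.1, 72.2, 213 and 240.0 FPKM in untreated tumors, with slopes of 1.34 ± 0.12 and 1.86 ± 0.15. For both genes the groups overlapped and the highest values were in pre_Liver replicates 4 and 5. All 15 amino acid genes and all 13 periportal genes rose, with median slopes of 0.88 and 0.84 in 10 and 1.01 and 1.26 in 8 libraries. In 10 libraries 4 of the 15 amino acid genes had a slope above 1 and 7 below 1, and of the 13 periportal genes 3 were above and 6 below. The lowest in these lists were Sdsl (serine dehydratase-like), at 0.21 ± 0.07, and Hsd17b13, a lipid droplet protein, at 0.23 ± 0.05. Sdsl was not called without post_Liver replicate 3 (slope 0.23) or 4 (0.16), or pre_Liver replicate 2 (0.18) or 5 (0.20).

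Genes of the hepatocytes near the central vein, of drug oxidation and of bile acids rose with Alb. All 14 pericentral genes rose, with a median slope of 0.73 in 10 and 0.82 in 8 libraries. Cyp2e1 (chromosome 7, 140763739 to 140774987), which oxidises ethanol, stood at 49.6, 64.1, 526, 792 and 1679 FPKM in treated tumors and 769, 1736, 3280.4, 2611 and 4877 FPKM in untreated tumors. Both groups overlapped and the slope was 0.95 ± 0.07 (SE). The smallest slopes of the list were those of Lgr5 (a receptor for R-spondins) at 0.18 ± 0.05, Rhbg (an ammonia transporter) at 0.22 ± 0.07 and Axin2 (an inhibitor of Wnt signalling) at 0.26 ± 0.06. Lgr5 was not called without post_Liver replicate 4 (slope 0.14), nor Rhbg without post_Liver replicate 3 (0.19) or 4 (0.14), and in 8 libraries the slope of Axin2 was −0.00012. Of 17 cytochrome P450 genes 15 rose, with a median of 0.73 and 0.97 in 10 and 8 libraries. Cyp3a11 (chromosome 5, 145854426 to 145879964), which oxidises many drugs, stood at 24.1, 31.8, 111, 221 and 179 FPKM in treated tumors and 71.3, 269, 379.7, 344 and 661 FPKM in untreated tumors. The groups overlapped, and the slope was 0.69 ± 0.09. Those that did not rise were Cyp4a10 and Cyp4a14, which oxidise fatty acids under control of PPAR alpha. Cyp4a10 stood at 0.17, 0.68, 0.44, 2.83 and 0.51 FPKM in treated tumors and 1.03, 13.1, 20.8, 30.7 and 90.5 FPKM in untreated tumors, so the 4 treated tumors other than replicate 5 lay below every untreated one, and its slope was 0.44 ± 0.23 in 10 and 1.42 ± 0.32 in 8 libraries. All 13 bile acid genes rose (median 0.70 and 0.71), the steepest being Slc27a5, which activates bile acids for conjugation, at 1.11 ± 0.06.

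Plasma protein genes followed Alb in every list that holds them, with slopes mostly below 1. All 22 plasma protein genes, all 18 of coagulation and fibrinolysis and all 15 of complement rose, with median slopes of 0.75, 0.68 and 0.69. In 8 libraries 19, 16 and 12 rose, with medians of 0.76, 0.69 and 0.55. Of the 22 plasma protein genes 16 had a slope below 1 and none a slope above it. Plg (plasminogen) and Serpind1 (heparin cofactor) had slopes of 0.91 ± 0.06 and 0.88 ± 0.06, and Hc (complement C5) of 0.80 ± 0.06. The genes with the smallest slopes of the coagulation and complement lists were also present in fat pad tumors. Pros1 (protein S) had a slope of 0.33 ± 0.05 and averaged 18.6 TPM there, and C4b (complement C4) had a slope of 0.28 ± 0.06 and averaged 125 TPM. Apoe, an apolipoprotein that macrophages also make and that is on none of these lists, had a slope of 0.62 ± 0.06 and averaged 2369 TPM. Cfb (complement factor B, chromosome 17, 34856374 to 34862518), at 84.5 TPM in fat pad tumors, stood at 53.4, 57.0, 213, 237 and 347 FPKM in treated tumors and 205, 336, 414, 507 and 457 FPKM in untreated tumors. The groups overlapped, the 2 low treated tumors were lowest, and the slope was 0.53 ± 0.04.

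Acute phase genes, which hepatocytes switch on in inflammation, followed Alb loosely and among the 8 libraries often not at all. Of 20 such genes 17 rose in 10 libraries (median slope 0.69) but 7 in 8 libraries (median 0.33), against 22 and 19 of the 22 plasma protein genes. Saa2 (chromosome 7, 46751790 to 46754313), a serum amyloid A, stood at 3, 3.41, 221, 494 and 2872 FPKM in treated tumors and 154, 218, 741, 115 and 65.2 FPKM in untreated tumors. Its highest value was in post_Liver replicate 4, and the pre_Liver replicates 4 and 5, highest in Alb, held less Saa2 than the other 3 untreated tumors. The slope was 1.40 ± 0.34 (SE) in 10 and 0.05 ± 0.53 in 8 libraries. Saa1, a near-identical neighbour with uncertain values, had slopes of 1.13 ± 0.30 and −0.0070 ± 0.49, and was not called without post_Liver replicate 3 (slope 1.01) or 4 (0.87). Hp (chromosome 8, 109575128 to 109579172), haptoglobin, stood at 306, 362, 1635, 1300.5 and 4766 FPKM in treated tumors and 1548, 1448, 2662, 1523 and 1700.2 FPKM in untreated tumors. Outside the 2 low treated tumors it spanned 1300.5 to 4766 FPKM with no order along Alb, and its slope was 0.56 ± 0.12 and 0.22 ± 0.23. Lcn2 (lipocalin 2), which neutrophils and carcinoma cells also make, stood at 1390.3, 1632, 1769, 892 and 2269.5 FPKM in treated tumors and 692, 507, 584, 239.7 and 159 FPKM in untreated tumors. All treated tumors lay above all untreated ones, and the slope was −0.12 ± 0.13. Lbp, the lipopolysaccharide binding protein (0.10 ± 0.07), and the metallothionein Mt2 (0.31 ± 0.16) were not called either, but were without post_Liver replicate 5 (Lbp, slope 0.15) and pre_Liver replicate 5 (Mt2, 0.39). By contrast Serpina3m and Saa4 had slopes of 1.14 ± 0.08 and 1.09 ± 0.07, with 1.02 ± 0.17 and 1.03 ± 0.15 in 8 libraries.

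**Figure D2:**
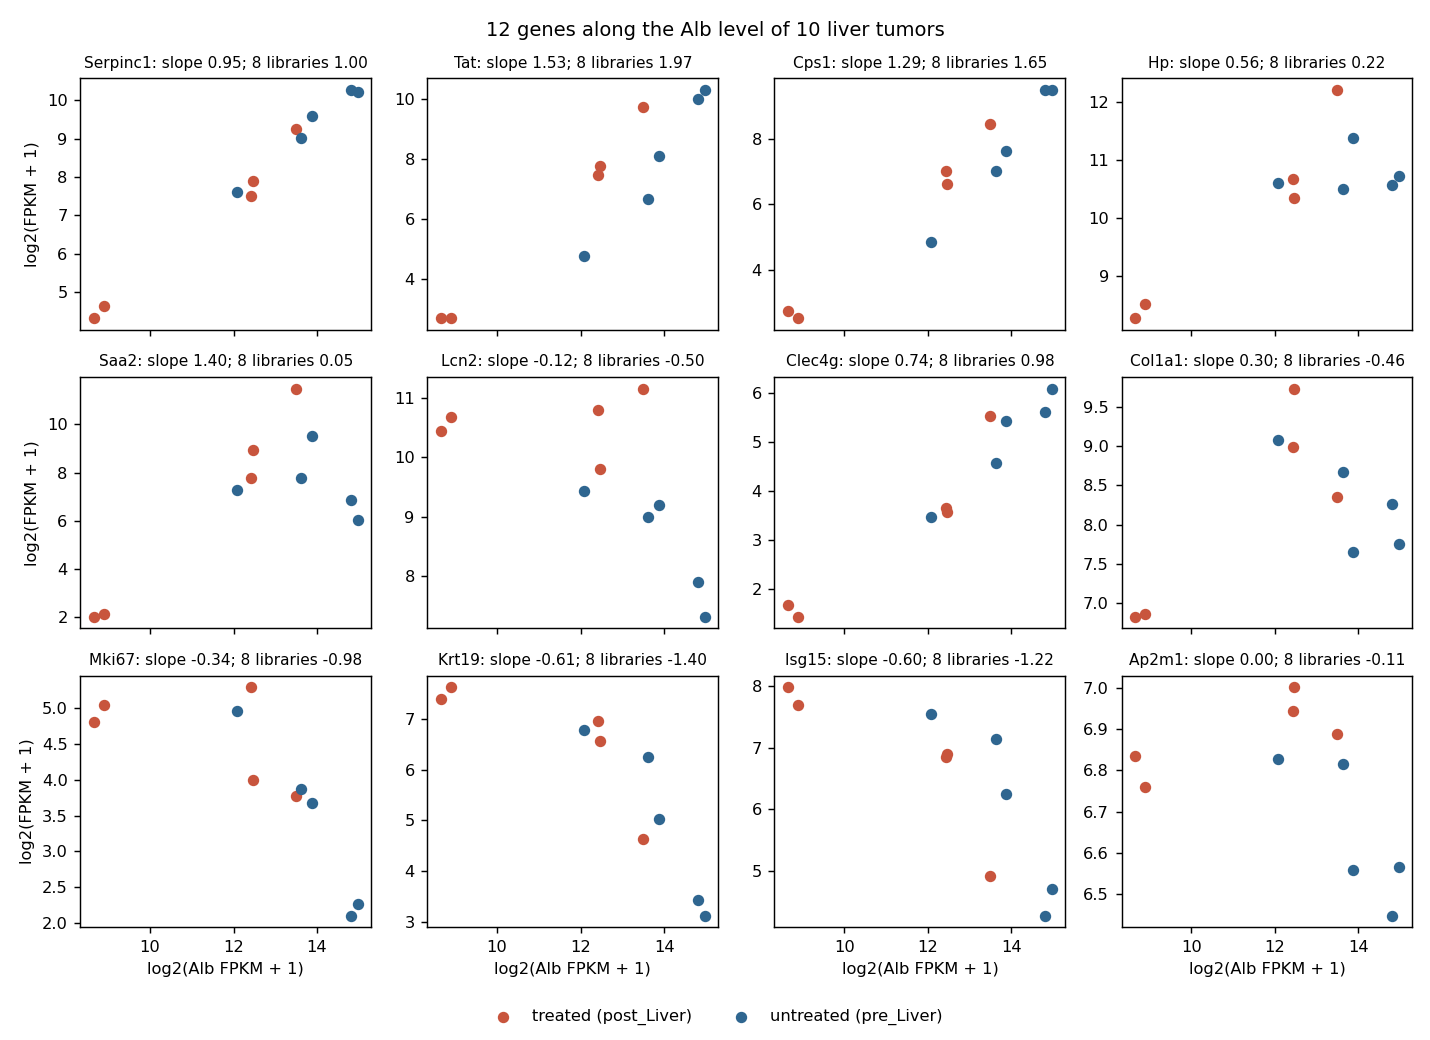
Level of 12 genes as log2(FPKM + 1) against log2(Alb FPKM + 1), 1 point per library, treated tumors in red and untreated tumors in blue, with the slope in 10 and in 8 libraries over each panel. Serpinc1 lies near a line through all libraries, Tat rises more steeply, Saa2 and Hp are lowest in the 2 low treated tumors and have no steady order among the rest, Krt19 and Isg15 fall, and Ap2m1 has a slope near 0 on an axis that spans less than the others.

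Most genes of fatty acid oxidation and most hepatocyte transcription factors rose, with median slopes under those of the secreted proteins. Of 16 genes of fatty acid oxidation and ketone bodies 11 rose and 1 fell (median slope 0.33), and in 8 libraries 14 rose (median 0.59). Bdh1 (chromosome 16, 31422280 to 31458901), which turns acetoacetate into hydroxybutyrate, stood at 3.68, 3.86, 6.46, 17.9 and 22.2 FPKM in treated tumors and 32.3, 54.8, 88.0, 68.6 and 122 FPKM in untreated tumors. All treated tumors lay below all untreated ones, and the slope was 0.45 ± 0.08 (SE) in 10 and 0.59 ± 0.18 in 8 libraries. The mitochondrial trifunctional protein subunits Hadha and Hadhb were not called, at 0.05 ± 0.04 and 0.03 ± 0.04, but rose in the 8 libraries, at 0.23 ± 0.06 and 0.19 ± 0.07, and with median-of-ratios scaling, at 0.18 and 0.15. Acadl, a long-chain acyl-CoA dehydrogenase that averaged 248 TPM in fat pad tumors, fell at −0.18 ± 0.05, but was not called without post_Liver replicate 2 (slope −0.15) or 4 (−0.12). Nor was Acadl called in the 8 libraries (−0.10), with median-of-ratios scaling (−0.03) or when rescaled without the hepatocyte lists (−0.09). Of 14 transcription factor genes 13 rose (median 0.49 and 0.69). Hnf4a (chromosome 2, 163506808 to 163572910), a nuclear receptor that keeps hepatocyte identity, stood at 3.91, 4.65, 27.5, 29.4 and 92.4 FPKM in treated tumors and 29.1, 55.4, 90.0, 124 and 119.9 FPKM in untreated tumors and had a slope of 0.77 ± 0.06. Foxa1, a pioneer factor also of mammary epithelium, went the other way. It stood at 14.0, 17.1, 4.69, 2.72 and 3.53 FPKM in treated tumors and 3.54, 3.18, 4.95, 4.28 and 4.95 FPKM in untreated tumors, so that only the 2 low treated tumors exceeded 5 FPKM. Its slope was −0.32 ± 0.09 in 10 and 0.10 ± 0.10 in 8 libraries, and it was not called without post_Liver replicate 2 (slope −0.25) or 3 (−0.29).

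Genes of the other resident liver cells rose with Alb too, with list medians at or below 0.41. All 12 genes of the sinusoidal endothelium rose (median slope 0.39), as did 8 of 10 Kupffer cell genes (0.41), 9 of 12 pan-endothelial genes (0.23) and 6 of 11 stellate cell genes, of which 2 others fell (0.28). In 8 libraries 7, 4, 3 and 3 rose, and 0, 1, 2 and 3 fell, with medians of 0.36, 0.35, 0.04 and 0.09. Clec4g (chromosome 8, 3707064 to 3720651), a lectin of sinusoidal endothelium, stood at 2.19, 1.69, 11.5, 10.9 and 45.1 FPKM in treated tumors and 10.0, 22.8, 42.2, 48.0 and 67.0 FPKM in untreated tumors. Untreated replicates 4 and 5 were highest, post_Liver replicate 4 lay among the untreated tumors, and the slope was 0.74 ± 0.08 (SE) in 10 and 0.98 ± 0.14 in 8 libraries. Clec4f (chromosome 6, 83644542 to 83656187), a lectin found on Kupffer cells, stood at 5.77, 5.02, 18.5, 8.38 and 38.7 FPKM in treated tumors and 18.6, 29.4, 49.9, 45.4 and 45.6 FPKM in untreated tumors. The 3 untreated tumors of highest Alb lay between 45.4 and 49.9 FPKM, and the slopes were 0.44 ± 0.09 and 0.56 ± 0.18. Fcna (ficolin A), another Kupffer cell gene, stood at 1.18, 2.14, 15.0, 12.7 and 30.5 FPKM in treated tumors and 8.12, 20.6, 20.9, 19.7 and 19.8 FPKM in untreated tumors and had slopes of 0.66 ± 0.07 and 0.47 ± 0.13. Among stellate cell genes Reln (reelin) stood at 0.83, 0.82, 2.43, 2.37 and 5.6 FPKM in treated tumors and 1.83, 2.71, 3.8, 5.88 and 7.22 FPKM in untreated tumors, with slopes of 0.37 ± 0.05 and 0.57 ± 0.09. Biliary genes could not be read apart from the carcinoma, as Krt7, Krt19 and Epcam stand on both lists. Of 6 tested, 1 rose and 3 fell, while 14.6% of all genes rose and 42.3% fell. Among those that fell was Sox9, a factor of bile duct cells, at −0.50 ± 0.12.

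Genes of the carcinoma cells fell as hepatocyte RNA rose. Of 17 carcinoma epithelium genes 12 fell and none rose (median slope −0.48), and in 8 libraries 16 fell (median −1.13). Of all genes 42.3% fell in 10 libraries (median −0.10) and 54.8% in 8 (median −0.25). Krt19 (chromosome 11, 100140810 to 100148665), a keratin of simple epithelia, stood at 168, 196, 124, 93.8 and 23.8 FPKM in treated tumors and 109, 75.2, 31.6, 9.73 and 7.7 FPKM in untreated tumors. In both groups the libraries with most Alb held least Krt19. Its slope was −0.61 ± 0.17 (SE) in 10 and −1.40 ± 0.20 in 8 libraries, and it was not called without post_Liver replicate 4 (slope −0.52). The 8 steepest falls among genes of at least 20 FPKM included those of Csn3 (kappa-casein, a milk protein), Coro6 (a coronin), the predicted gene Gm40902, Lgals7 (galectin 7), Shisa2, Emid1 and Tslp (an epithelial cytokine), with slopes between −1.19 and −0.92. Csn3 (chromosome 5, 87925579 to 87932665) stood at 137, 81.0, 29.3, 2.91 and 1.38 FPKM in treated tumors and 71.3, 55.0, 18.7, 0.06 and 5.88 FPKM in untreated tumors, highest in the tumor with least Alb and lowest in pre_Liver replicate 4. Coro6 stood at 70.5, 81.9, 8.16, 8.26 and 1.33 FPKM in treated tumors and 22.8, 11.6, 6.44, 0.31 and 0.74 FPKM in untreated tumors, and its slope was −1.06 ± 0.12 in 10 and −1.51 ± 0.19 in 8 libraries. Tslp stood at 224, 275, 79.2, 55.0 and 11.9 FPKM in treated tumors and 241, 125, 82.3, 7.61 and 11.3 FPKM in untreated tumors, with slopes of −0.92 ± 0.19 and −1.75 ± 0.26.

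All mitosis, DNA replication and interferon response genes tested fell in the 8 libraries, where 54.8% of all genes did. In 10 libraries, where 42.3% of all genes fell, most mitosis and replication genes and 8 of 16 interferon response genes were not called. Of 19 mitosis genes 4 fell in 10 libraries (median slope −0.34) and 19 in 8 (median −1.03), and of 15 DNA replication genes 1 and 15 fell (−0.26 and −0.87). The 1 was Mcm7, a helicase subunit (−0.31 ± 0.12 in 10 libraries), whose call ended on leaving out any 1 library but post_Liver replicate 1, with slopes of −0.39 to −0.23. Mki67 (chromosome 7, 135689784 to 135716361), a marker of cycling cells, stood at 26.9, 31.9, 38.0, 14.9 and 12.7 FPKM in treated tumors and 30.1, 13.7, 11.8, 3.3 and 3.8 FPKM in untreated tumors. The highest value was that of post_Liver replicate 1, and that of pre_Liver replicate 2 lay between those of the 2 low treated tumors, while pre_Liver replicates 4 and 5 were lowest. Its slope was −0.34 ± 0.14 (SE) in 10 and −0.98 ± 0.16 in 8 libraries, and without post_Liver replicate 1 (−0.42) or 3 (−0.46) it counted as a fall. Of 16 interferon response genes 8 fell in 10 libraries (median −0.33) and 16 in 8 (median −0.92). Isg15 (chromosome 4, 156199424 to 156200818), a ubiquitin-like protein induced by interferon, stood at 251, 207, 114, 119 and 29.2 FPKM in treated tumors and 186, 139.7, 74.7, 18.3 and 25.1 FPKM in untreated tumors, with slopes of −0.60 ± 0.14 and −1.22 ± 0.20. In each group its lowest values were in libraries rich in Alb. Of 20 ribosomal protein genes 19 fell (median −0.29 and −0.56), the steepest being Rpl23 at −0.86 ± 0.11. No glycolysis gene of 15 was called in 10 libraries (median −0.11, and 0.01 with median-of-ratios scaling), and 9 fell in 8 (median −0.39).

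Stroma, macrophage, T cell and antigen presentation genes had other slopes without the 2 low treated tumors, as did genes at large, of which 42.3% fell in 10 and 54.8% in 8 libraries. Of 15 fibroblast and collagen genes 3 rose in 10 libraries (median slope 0.27) and none rose and 8 fell in 8 (median −0.36). Col1a1 (chromosome 11, 94936224 to 94953042), the main chain of type I collagen, stood at 112, 115, 508, 851 and 327 FPKM in treated tumors and 540.1, 407, 199.6, 306 and 215 FPKM in untreated tumors. The 2 low treated tumors were lowest, and among the other 8 the highest values were not in the libraries richest in Alb. Its slope was 0.30 ± 0.16 (SE) in 10 and −0.46 ± 0.16 in 8 libraries, and without pre_Liver replicate 2 it was 0.44 and counted as a rise. Dcn (decorin), a proteoglycan of connective tissue, rose in 10 libraries (0.49 ± 0.07) and kept its sign in 8 (0.36 ± 0.14). Of 15 monocyte and tumor macrophage genes 5 rose in 10 libraries (0.25) and none rose and 3 fell in 8 (−0.25). Mrc1, the mannose receptor, had the largest slope of the list in both, at 0.59 ± 0.10 and 0.26 ± 0.17. MHC class II genes were level in 10 libraries, with none of 9 called (0.02), and 7 fell in 8 libraries (−0.52). Of 15 T and NK cell genes 2 rose in 10 libraries (0.05) and 3 fell in 8 (−0.44). The shares that fell in 8 libraries were thus near that of all genes for fibroblast genes and under it for macrophage and T cell genes. The plasma cell gene Jchain, the joining chain of antibodies, stood at 2.78, 6.81, 21.2, 692 and 1363 FPKM in treated tumors and 23.0, 107, 26.3, 44.3 and 21.7 FPKM in untreated tumors. It was highest in post_Liver replicates 4 and 5, its slope was 1.18 ± 0.33, and it was not called without post_Liver replicate 3 (slope 1.01) or 4 (0.90).

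Some abundant genes had slopes near 0 on Alb in 10 libraries, where the median slope of all genes was −0.10. The 8 of at least 100 FPKM with slopes nearest 0 were Ap2m1 (a subunit of the clathrin adaptor), H2-Ea-ps (annotated as a polymorphic pseudogene), Rnasek (ribonuclease kappa), Cd164 (a sialomucin), Ost4 (a subunit of the oligosaccharyltransferase), Fcer1g (the Fc receptor gamma chain), Lcp1 (L-plastin of leukocytes) and Atp5e (a subunit of ATP synthase). Ap2m1 (chromosome 16, 20535478 to 20544909) stood at 113, 107, 122, 127 and 117 FPKM in treated tumors and 113, 112, 93.2, 86.3 and 93.8 FPKM in untreated tumors, all within a narrow band. Cd164 (chromosome 10, 41519414 to 41531048) stood at 130.4, 148, 135, 140.3 and 129 FPKM in treated tumors and 130.2, 136, 141, 129 and 152 FPKM in untreated tumors, without any order by Alb or treatment. With median-of-ratios scaling, which moves the median slope of all genes to 0.01, the slopes of Ap2m1, Cd164, Ost4 and Lcp1 were 0.12, 0.12, 0.12 and 0.10, all counted as rises. H2-Ea-ps and Lcp1 fell among the 8 libraries, at −0.55 ± 0.15 and −0.26 ± 0.09. Of 18 genes of oxidative phosphorylation 2 rose and 3 fell (median 0.01), of 15 neutrophil genes none was called (−0.12, and 0.02 with median-of-ratios scaling), and of 5 platelet genes none (−0.03, and 0.05). Of 11 genes often used as references 1 rose and 5 fell (median −0.16), while 14.6% of all genes rose and 42.3% fell. Gapdh had a slope of 0.01 ± 0.06 and Actb of −0.17 ± 0.08. With median-of-ratios scaling the list median was −0.03 and Gapdh counted as a rise at 0.12, and in 8 libraries Actb counted as a fall at −0.47 ± 0.14.

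**Figure D3:**
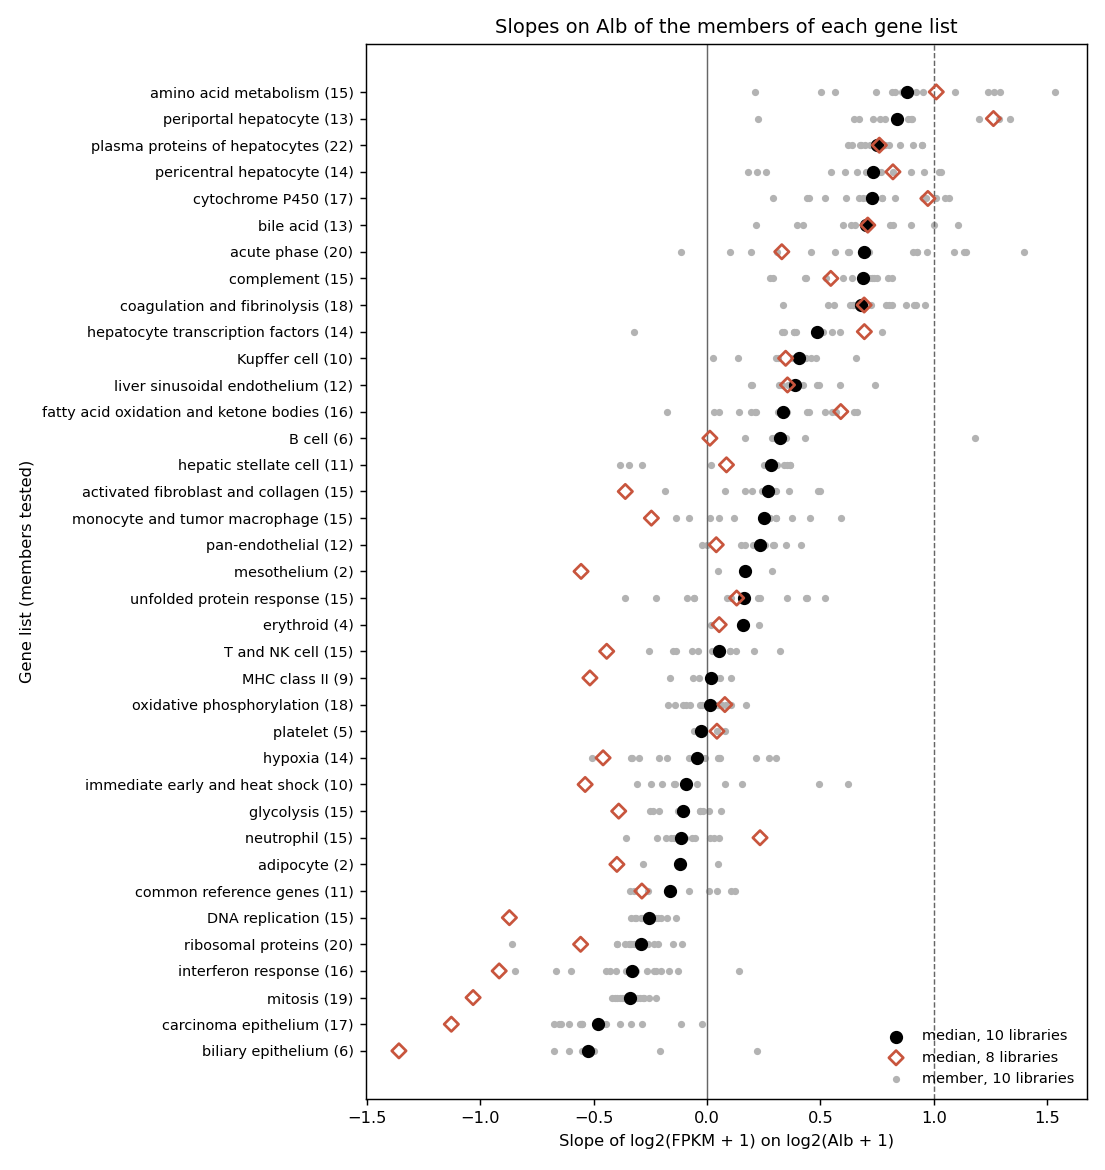
Slope on log2(Alb + 1) of the members of 37 gene lists (grey points), with the list median in 10 libraries (black) and in the 8 libraries without the 2 low treated tumors (open diamonds), where the dashed line marks a constant ratio to Alb. Hepatocyte lists have medians from 0.33 to 0.88, and the carcinoma, mitosis and interferon medians move further below 0 in 8 libraries.

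Fat pad tumors, which grew outside the liver, were not used to order the libraries and show where the rising and falling genes are otherwise present. Of the 476 rising genes with a slope of at least 0.5, 425 were in the table of the fat pad tumors, with a median level of 1.01 TPM, and 49.6% of them lay under 1 TPM. Of all 1896 rising genes, without that cut on slope, 1816 were in the same table, with a median of 6.05 TPM and 22.9% under 1 TPM. The 5500 falling genes, taken at any slope, had a median of 29.3 TPM, and 0.364% of them lay under 1 TPM. For all genes tested the median was 22.8 TPM and 4.70% lay under 1 TPM. Among those named, Tat averaged 0.125 TPM, Cps1 0.0478 TPM and Hnf4a 0.00628 TPM in fat pad tumors, against 176 TPM for Coro6, 599 TPM for Tslp and 856 TPM for Gm40902. Of the steep fallers Csn3 was the lowest there, at 10.3 TPM. The tables were normalized separately, so no test was run across them.

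The slopes were then compared between treated and untreated tumors. In treated tumors alone 1983 genes rose (15.2%) and 3740 fell (28.8%), and in untreated tumors alone 1370 rose (10.5%) and 6497 fell (50.0%). All 22 plasma protein genes rose in treated tumors and 19 in untreated tumors, with medians of 0.79 and 0.68. Of 20 acute phase genes 18 rose in treated tumors (median 0.80), and 5 rose and 1 fell in untreated tumors (median 0.22). For Saa2 the slope was 1.87 in treated and −0.35 in untreated tumors (limma interaction adjusted p = 0.0434). Mitosis genes stood at medians of −0.14 in treated tumors, where none of 19 fell, and −1.06 in untreated tumors, where all 19 fell. Over all genes the interaction was higher in treated tumors for 1683 genes (12.9%) and lower for 194 (1.49%). The 4 genes with the lowest p were Cxcl14, a chemokine (0.46 in treated and −0.79 in untreated tumors, adjusted p = 0.0218), Lmcd1, a LIM domain protein (0.31 and −0.72, adjusted p = 0.034), Retsat, a retinol saturase (0.10 and 0.92, adjusted p = 0.0434), and Syt13, a synaptotagmin (0.14 and −0.76, adjusted p = 0.0434). These calls rest on single libraries and on the 2 low treated tumors. The counts were 1 and 0 without post_Liver replicate 2, 0 and 0 without replicate 3, 2 and 0 without replicate 5, 2 and 1 without pre_Liver replicate 3, 0 and 0 without replicate 4 or 5, 1720 and 89 without replicate 2, and 4670 and 637 without post_Liver replicate 4. In the 8 libraries limma called 0 genes, and at an unadjusted p under 0.05 in 10 libraries there were 5630.

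At equal Alb, treated tumors held more RNA of neutrophils and their precursors and less of the major urinary proteins. With Alb in the fit 226 genes were higher (1.74%) and 94 lower (0.723%) in treated tumors, and without it 291 were higher (2.24%) and 183 lower (1.41%). The groups share the range of log2 Alb between 12.08 and 13.49 only, so outside it the comparison extends the fitted lines. Alb was itself measured after treatment, so a difference at equal Alb cannot be read as a treatment effect with hepatocyte content held fixed. Of 15 neutrophil genes 9 were higher at equal Alb, with a median difference of 3.88, and 14 without Alb in the fit (4.19), while the medians of all genes were 0.01 and 0.37. Platelet genes were higher too, 3 of 5 at equal Alb (median 1.13) and all 5 without Alb (1.25), among them Pf4, Gp9 and Gp1bb at both, and their part in the neutrophil difference was not tested. Ngp (chromosome 9, 110419747 to 110423012), a granule protein of immature neutrophils, stood at 1614, 2425, 1568, 527 and 1811 FPKM in treated tumors and 29.7, 31.2, 14.1, 171 and 20.4 FPKM in untreated tumors. All treated tumors lay above all untreated ones, and the difference at equal Alb was 5.19 ± 0.85 (SE; limma adjusted p = 0.0292). S100a8, a calcium-binding protein of neutrophils, stood at 2169.6, 3168, 1894, 470.1 and 1961 FPKM in treated tumors and 53.6, 43.2, 18.7, 209.9 and 23.0 FPKM in untreated tumors, again without overlap, and differed by 4.69 ± 0.89 (limma adjusted p = 0.0359). Chil3 (chromosome 3, 106147554 to 106167564), a chitinase-like protein of myeloid cells, had the largest positive difference of all genes, at 5.53 ± 0.34 (limma adjusted p = 0.000291), with 47.1, 79.1, 191, 182 and 135 FPKM in treated tumors and 1.6, 4.45, 3.27, 7.66 and 3.03 FPKM in untreated tumors. Stfa2 (a stefin) and the granule proteases Ctsg (cathepsin G) and Elane (neutrophil elastase) differed by 5.24 ± 0.79, 4.77 ± 0.80 and 4.73 ± 0.78 (limma adjusted p of 0.0273, 0.0315 and 0.031).

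The lower genes at equal Alb were led by Mup9 (chromosome 4, 60418046 to 60421952) and other major urinary proteins, pheromone carriers that hepatocytes secrete. Mup9 stood at 0.71, 1.4, 0, 3.79 and 9.43 FPKM in treated tumors and 369, 1904, 3252, 3264 and 2163 FPKM in untreated tumors, so no treated tumor reached 10 FPKM and no untreated one lay below 369 FPKM, and the difference was −8.08 ± 0.80 (limma adjusted p = 0.0075). Mup-ps12, Mup2, Mup3, Mup16 and Mup12 differed by −4.89 to −4.02, and as the family holds near-identical copies these values are uncertain. Among hepatocyte genes outside this family, Bdh1 differed by −1.63 ± 0.35 (limma adjusted p = 0.0441) and Tat by 2.22 ± 0.44 (limma adjusted p = 0.037). Also higher were Dcn (1.59 ± 0.29), the macrophage receptors Mrc1 (2.10 ± 0.41) and Mertk (1.18 ± 0.20) and the heat shock gene Hspa1a (3.18 ± 0.56), each with a limma adjusted p under 0.05.

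Every hepatocyte list had a negative median difference in treated tumors without Alb in the fit, and the medians moved towards or past 0 once Alb was in the fit. Without Alb the median differences were −2.003 for plasma proteins, −2.14 for coagulation, −2.34 for amino acid metabolism and −2.40 for cytochromes P450, and at equal Alb they were −0.01, −0.02, 0.12 and −0.42. The P450 list had 2 and the fatty acid oxidation list 3 genes lower at equal Alb, and the median of fatty acid oxidation was −0.58, against −1.49 without Alb. Acute phase genes were at −0.81 without Alb and 0.99 at equal Alb, with 1 and 2 genes higher. The counts of genes called depend on single libraries. At equal Alb they were 1 higher and 0 lower without post_Liver replicate 4, 11 and 4 without replicate 3, 13 and 4 without replicate 2, 36 and 18 without replicate 1 and 136 and 38 without replicate 5. Leaving out pre_Liver replicates 1 to 5 in turn gave 98 and 16, 531 and 275, 12 and 4, 140 and 69, and 154 and 63. Without post_Liver replicate 4 the single call was that of Chil3, which held without any 1 library. Every other call named at equal Alb ended there, among them Mup9 (difference −8.71, limma adjusted p = 0.067, between 0.00313 and 0.428 over its alternatives), Ngp (4.84, 0.191, between 0.00651 and 0.428) and S100a8 (4.22, 0.223, between 0.0128 and 0.463). Without Alb in the fit the counts without 1 library lay between 82 and 2497 higher and 35 and 1019 lower, the highest without pre_Liver replicate 2 and the lowest without pre_Liver replicate 3. In the 8 libraries 321 genes were higher and 167 lower at equal Alb, and 115 and 21 without Alb.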

How the data were processed

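Poly(A) RNA of 10 liver and 6 fat pad tumor libraries was analysed from the tables the authors deposited. The unit of the liver table is not named, and its values fit FPKM, the unit used here for what the authors deposited. Other tables the authors deposited are in TPM, and that of the untreated libraries carries a constant per gene, so its shifted values were treated as a score of the authors' own adjustment. Tools listed in the submitters' processing notes are fastp and StringTie, and the build is GRCm38 (mm10), with roles and versions not given in the sources used here. Sequencing depth cannot be had from these units.

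Of 17884 rows of the liver table, 13007 genes with a mean of at least 1 FPKM were tested, Alb left out. log2(FPKM + 1) was fitted in limma 3.58.1 (R 4.3.3, with a variance trend) on log2(Alb + 1) and treatment. The same fit tested slopes against 1, an interaction, and treatment with and without Alb. Adjusted p-values are Benjamini-Hochberg over all genes, called under 0.05. The fit was tested on simulated data. A fold change on this scale understates that of low genes. Coordinates are from the GRCm38 annotation and promoters from RefSeq, and promoter shares and figures were made in Python 3.11.15. The 37 gene lists (501 genes) and the genes in view were chosen with earlier results of these data known. Genes were named by the 8 largest and smallest slopes at 20 FPKM or more, the 8 steadiest ratios to Alb at 50 FPKM, the 8 flattest at 100 FPKM, leading or low-slope list members, the 6 largest differences each way at equal Alb, the 4 lowest interaction p and 28 preset genes. Alternatives were other pseudocounts, filters, scalings and axes, single libraries left out, a replicate block and the averaging of post_Liver replicates 2 and 3, which was chosen after seeing the data. Some genes that these rules name are not reported here.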

Additional observations from a re-analysis of the deposited data

Results flagged for a closer look

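Of 173 named genes, the highest and lowest library was checked in each group of 5 (346 groups), where chance alone sets about 1 in 20 groups apart. In 10 groups, a smaller share than chance alone sets apart, 1 library lay far from the other 4. Among treated tumors, post_Liver replicate 5 stood apart with Ngp at 527 FPKM, Elane at 69.0 FPKM and S100a8 at 470.1 FPKM, all lower than in the other treated tumors, and with Cyp4a14 at 0.950 FPKM. Acadm, an enzyme of fatty acid oxidation, stood apart in post_Liver replicate 4, at 53.7 FPKM. Among untreated tumors, pre_Liver replicate 2, which held least Alb, stood apart with Fcna at 8.12 FPKM, Mup9 at 369 FPKM, Mup2 at 792 FPKM and Mup3 at 288 FPKM, and pre_Liver replicate 3 with Hp at 2662 FPKM.

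For 28 named genes the slope on Alb differed between treated and untreated tumors by limma's interaction term (adjusted p between 0.0218 and 0.0483). Each value is the slope in treated minus that in untreated tumors. In hepatocyte and liver genes it was 2.21 for Saa2, 1.92 for Saa1, 0.31 for Pros1 and 0.37 for Axin2, and it was negative at −0.73 for Sds, −0.48 for Cps1, −1.58 for Cyp4a10, −1.23 for Cyp4a14, −0.44 for Cpt2, −0.43 for Acadm, −0.57 for Foxa1, −1.21 for Mup-ps12 and −0.82 for Retsat. In genes of cycling cells and glycolysis it was 0.84 for Nusap1, 0.74 for Mcm7, 0.68 for Pole, 0.83 for Mki67, 0.63 for Hk1 and 0.87 for Pkm. The others were H2-Ea-ps at 0.70, Msln at 1.24, Ywhaz at 0.48, Cxcl14 at 1.24, Lmcd1 at 1.03, Syt13 at 0.90, Vim at 0.82, Spp1 at 1.39 and Mmp9 at 1.46. Without post_Liver replicates 2 and 3 no interaction was called.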

How the results depend on the processing

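Without a replicate block the number of genes that rose was within 1.5 times 1896 except with median-of-ratios scaling (3566), and that of genes that fell within 1.5 times 5500 except with median-of-ratios scaling (3197) and quantile normalization (2599). Without 1 library 1399 to 1931 rose and 3672 to 5881 fell. Slopes above 1 were found for 21 genes with a pseudocount of 0.1, 56 with the 22 plasma protein genes in place of Alb, 14 in the 8 libraries, 14 with a term for pre_Liver replicates 4 and 5, and 16 and 15 in treated and untreated tumors alone, and for 7 to 12 without 1 library, while 12837 to 12897 lay below 1. Interactions numbered 0 to 4670 higher and 0 to 637 lower without 1 library, 5 and 2 with no filter, 504 and 651 with median-of-ratios scaling, 3007 higher in TPM, 364 lower when rescaled without the hepatocyte lists, 2832 and 543 with the plasma protein axis, and 0 and 0 after quantile normalization, in the 8 libraries, with the term and with post_Liver replicates 2 and 3 averaged. Differences at equal Alb numbered 1 to 531 higher and 0 to 275 lower without 1 library, 480 and 281 with median-of-ratios scaling, 370 higher when rescaled, 432 and 184 after quantile normalization, 167 lower in the 8 libraries, 504 and 531 with the term and 11 and 4 with averaging. Differences without Alb numbered 82 to 2497 and 35 to 1019 without 1 library, 129 and 93 with median-of-ratios scaling, 115 and 21 in the 8 libraries, 79 and 32 with the term and 117 and 44 with averaging. As a replicate block, the replicate number gave 153 genes that rose and 3 that fell, no interaction (0 and 0), no difference at equal Alb (0 and 0) and 2435 higher and 1020 lower without Alb. Deviations of same-numbered libraries correlated at −0.12, 0.68, −0.01, 0.75 and 0.26, so that not every pair varied together and the numbers were not taken to pair the samples. Slopes called in 10 libraries turned sign, without a call, in the 8 libraries and in untreated tumors alone for Axin2 (−0.00012 and −0.030), Foxa1 (0.10 and 0.12), Cd4 (−0.082 and −0.11), Wt1 (−0.13 and −0.15) and Saa1 (−0.0070 and −0.38), in untreated tumors for Saa2 (−0.35), and with the block for Nusap1 (0.034) and Mcm7 (0.053). Slopes not called in 10 libraries had the other sign and were called in the 8 libraries and in untreated tumors alone for Msln (−0.98 and −0.93), Cxcl14 (−0.70 and −0.79), Lmcd1 (−0.65 and −0.72) and Vim (−0.45 and −0.47), in the 8 libraries for Col1a1 (−0.46), and with median-of-ratios scaling for Ap2m1 (0.12), Cd164 (0.12) and Lcp1 (0.10). The cause was not tested. Medians of glycolysis, hypoxia, neutrophil, platelet and immediate early genes changed sign with median-of-ratios scaling. The depth of the libraries is not known, so limits from counting cannot be given.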
